A study of Saccharomyces cerevisiae with 9 samples.

Results

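The genes described here are 37 genes of the DNA replication machinery of budding yeast, out of 5449 Saccharomyces cerevisiae genes measured on the same arrays. They were taken by name: every gene on a fixed list of origin, helicase, polymerase, clamp, ligation and nucleotide reduction genes was looked up in the platform annotation. All 37 were found, each with 1 probe set. The study grew yeast in YPD, a rich glucose broth, and at mid-exponential phase added bisphenol A (BPA), the monomer of polycarbonate plastics, dissolved in ethanol. Exposure lasted 180 min. The groups are control cultures that received the same volume of ethanol without BPA, cultures with 50 mg/L BPA and cultures with 300 mg/L BPA, with 3 arrays in each. The samples are labelled as biological replicates, but whether each came from a culture of its own is not given in the sources used here, nor is the strain. The p-values therefore measure the spread between these 9 samples, which may be technical.

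Replication starts at origins that are marked by the origin recognition complex, ORC. In G1, ORC and Cdc6 load the ring-shaped MCM helicase, which is switched on in S phase when Cdc45 and the GINS complex join it. Polymerase alpha with primase lays down primers, polymerases epsilon and delta extend them on the leading and lagging strands, and the clamp loader RFC places the sliding clamp PCNA that holds the polymerases on DNA. Ribonucleotide reductase makes the deoxynucleotides. In budding yeast many of these genes are transcribed in a burst at the G1/S boundary under the factors MBF and SBF, and others in late mitosis or with little change over the cycle.

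Expression was read as log2 values, so a difference of 1 is a doubling relative to the other transcripts of that array. All 37 genes lay above background on all 9 arrays. Background was the 95th percentile of the array's own fission yeast (Schizosaccharomyces pombe) probe sets, which lay between 2.05 and 2.20, and the lowest value of any of the 37 was 5.82, for ORC6. The median SD over the 37 genes was 0.09 at 300 mg/L, 0.13 at 50 mg/L and 0.05 in control.

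Replicate 2 of the 50 mg/L group stood apart from its group. On that array the 37 genes differed from the mean of the other 2 arrays of the group by a median of 0.19 in either direction, against 0.04 to 0.13 for the same measure on the other 8 arrays. The difference followed gene length. Across the 37 genes, Spearman's rho between the difference and the gene length in the R64 gene table was 0.790, and it was 0.606 across all 5449 genes, all points coming from that 1 array. Of the 18 genes longer than the median of the 37, which is 1866 bp, 15 were higher on replicate 2, with a median difference of 0.19. Of the 19 others 5 were higher, with a median of -0.15. MCM2 was 0.45 higher there, while RNR4 was 0.42 lower. The difference between the 3′ and 5′ control probe sets of actin, relative to its control mean, was also largest on this array, at 0.19, against -0.03 to 0.10 on the other 8. The part of either in the results was not tested. Counts of calls, and the differences of some genes, are also given without this array.

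**Figure D1:**
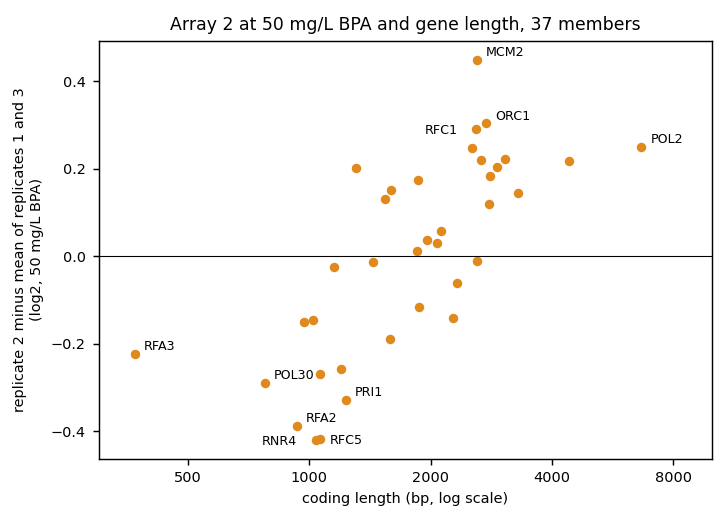
Difference between replicate 2 and the mean of replicates 1 and 3 at 50 mg/L BPA (vertical axis, log2) against gene length (horizontal axis, labelled coding length, bp, log scale), 1 point for each of the 37 genes. Short genes such as RNR4, RFC5 and RFA2 lie below 0 and long genes such as MCM2, ORC1 and RFC1 above it, with a Spearman's rho of 0.790.

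At 300 mg/L BPA, 13 of the 37 genes fell and 3 rose relative to control. The falls were in the sliding clamp and its loader (POL30, RFC4, RFC5), in ribonucleotide reductase (RNR1, RNR2, RNR4), in the polymerase alpha-primase and epsilon complexes (POL1, POL12, PRI1, DPB2), and in RFA1, MCM5 and ORC3. The rises were ORC2, POL2 and RAD27. The largest fall was that of RFC4, 1.83-fold, and no gene of the 37 changed by 2-fold. Changes were called by limma with Benjamini-Hochberg adjustment over all 5449 genes, at an adjusted p under 0.05. Of all genes tested, 25.2% were called lower and 27.5% higher, together 52.7%, so calls were common everywhere at this dose. Among the 37 the shares were 35.1% lower and 8.11% higher, together 43.2%. At an unadjusted p under 0.05 there were 20 of the 37, against 58.2% of all genes. The median change was -0.14 over the 37 genes and 0.01 over all genes. A fall of at least 1.5-fold was called for 6 of the 37, against 6.48% of all genes, and a rise of that size for 0, against 10.7%. Cultures were measured in bulk, so fewer cells in S phase and less of these transcripts per cell cannot be told apart.

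**Figure D2:**
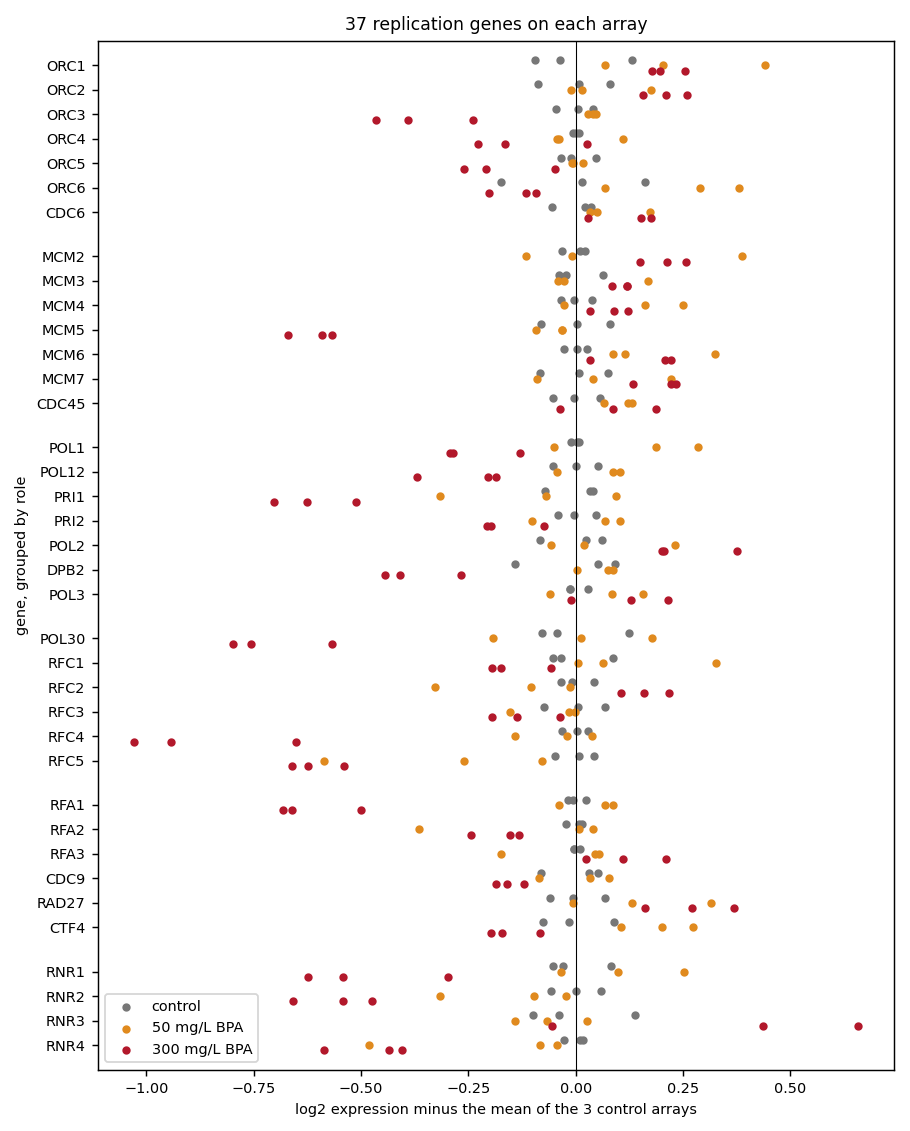
Each point is 1 array, with log2 expression minus the mean of the 3 control arrays on the horizontal axis and the 37 genes, grouped by role, down the page; grey is control, orange 50 mg/L BPA and red 300 mg/L BPA. The red points of RFC4, POL30, RFA1, PRI1 and MCM5 lie to the left of all control points, while those of POL2, ORC2 and RAD27 lie to the right.

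Of the 16 calls, 11 were kept under all 20 alternative settings, and all 11 are falls: ORC3, MCM5, PRI1, DPB2, POL30, RFC4, RFC5, RFA1, RNR1, RNR2 and RNR4. The other 5, ORC2, POL1, POL12, POL2 and RAD27, have changes between -0.25 and 0.27 and lost the call under at least 1 setting. All 5 lost it when arrays were centred on spike-in controls. ORC2 also lost it without control replicate 1 (adjusted p = 0.146 by limma), and POL1 without any single control array, at up to 0.104. POL2 lost it without control replicates 1 or 2 or 300 mg/L replicate 2, at 0.0674 to 0.112. RAD27 lost it without control replicates 2 or 3 or 300 mg/L replicates 1 or 2, at 0.0705 to 0.119. POL12 lost it without control replicate 3 or 300 mg/L replicate 3, at 0.0582 and 0.0723. ORC2 and POL1 also lost it without other single arrays, with limma's adjusted p between 0.0508 and 0.141. With the replicate number as a block, RAD27 lost its call over all 9 arrays (adjusted p = 0.0529 by limma) and ORC2 in the fit of the 2 groups alone (0.0534). Some of the 20 settings could hardly change a call of the 37 genes. Each has 1 probe set, so the mean of a gene's probe sets left its values as they were. The filter on dim genes kept 5410 genes and removed none of the 37.

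In origin recognition and licensing, 1 of 7 genes fell, 1 rose and 5 did not pass. Of all genes 25.2% were called lower and 27.5% higher. ORC3, a core subunit of ORC, had 6.85, 7.07 and 6.92 at 300 mg/L, against 7.27, 7.32 and 7.35 in control. The groups did not overlap, and ORC3 fell by 0.37 ± 0.07 (SE) with an adjusted p of 0.00182 in limma. ORC2, another core subunit, had 8.57, 8.52 and 8.47 at 300 mg/L, against 8.23, 8.39 and 8.32 in control, a change of 0.21 ± 0.08. ORC1, the ATPase subunit that also binds nucleosomes, changed by 0.21 ± 0.10 (adjusted p = 0.0995 by limma). ORC5, the other subunit that binds ATP, changed by -0.17 ± 0.07 (adjusted p = 0.0614 by limma). ORC4 and ORC6, the subunit whose role in loading MCM does not need DNA binding, changed by -0.12 and -0.14. CDC6, the loading ATPase, changed by 0.12 ± 0.07, and its groups overlapped.

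The MCM genes did not move together. MCM5, one of the subunits that form the gate of the ring, had 7.16, 7.19 and 7.08 at 300 mg/L, against 7.83, 7.76 and 7.67 in control. All treated values were below all control values, and MCM5 fell by 0.61 ± 0.07 (SE), 1.53-fold, with an adjusted p of 6.01e-05 in limma. None of the other 5 subunits of the same ring passed, where 52.7% of all genes did. MCM2, which forms the gate with MCM5, had 8.91, 9.01 and 8.97 at 300 mg/L, against 8.72, 8.78 and 8.77 in control. Its groups did not overlap, but its change of 0.21 ± 0.11 had an adjusted p of 0.150 in limma. MCM3, MCM4, MCM6 and MCM7, the remaining ATPases of the ring, changed by 0.08 to 0.20, with adjusted p from 0.0818 to 0.413. With spike-in centring the change of MCM4 was -0.01. CDC45, the helicase activator, changed by 0.08 ± 0.07 (adjusted p = 0.390 by limma).

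Polymerase and primase genes had 4 of 7 lower and 1 higher, where 25.2% and 27.5% of all genes were called lower and higher. PRI1, the catalytic subunit of primase, had 6.83, 7.02 and 6.90 at 300 mg/L, against 7.46, 7.57 and 7.56 in control. It fell by 0.61 ± 0.10 (SE), the largest change of this role, with an adjusted p of 0.000717 in limma. PRI2, the other primase subunit, had 8.18, 8.31 and 8.19 at 300 mg/L, against 8.43, 8.38 and 8.34 in control. Those groups did not overlap either, and the change was -0.16 ± 0.07 with an adjusted p of 0.0986 in limma. POL1, the catalytic subunit of polymerase alpha, fell by 0.24 ± 0.09, and POL12, its regulatory subunit, by 0.25 ± 0.07.

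The subunits of polymerase epsilon on the fixed list, DPB2 and POL2, were called in opposite directions. DPB2, its essential second subunit, had 7.10, 7.24 and 7.06 at 300 mg/L, against 7.36, 7.60 and 7.56 in control, and fell by 0.37 ± 0.08 with an adjusted p of 0.00322 in limma. POL2, its catalytic subunit, had 8.64, 8.81 and 8.64 at 300 mg/L, against 8.35, 8.46 and 8.49 in control, a change of 0.26 ± 0.09 with an adjusted p of 0.0320 in limma. POL3, the catalytic subunit of polymerase delta, changed by 0.11 ± 0.08, and its groups overlapped.

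The sliding clamp gene and 2 of the 5 clamp loader genes fell, and the other 3 did not pass. Of all genes 25.2% were called lower. POL30, which encodes PCNA, had 9.42, 9.66 and 9.47 at 300 mg/L, against 10.35, 10.18 and 10.14 in control. It averaged 9.51 ± 0.12 at 300 mg/L and 10.22 ± 0.11 in control (SD, n = 3 each). POL30 fell 1.63-fold, by 0.71 ± 0.11 (SE), with an adjusted p of 0.000385 in limma. RFC4, a small subunit of the loader, had 7.24, 7.53 and 7.15 at 300 mg/L, against 8.21, 8.15 and 8.18 in control. All treated values lay below all control values, and it fell by 0.87 ± 0.10 with an adjusted p of 6.57e-05 in limma. RFC5, another small subunit, had 7.36, 7.45 and 7.33 at 300 mg/L, against 7.94, 7.99 and 8.03 in control, and fell by 0.61 ± 0.11 with an adjusted p of 0.00131 in limma.

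RFC2 and RFC3 are the remaining small subunits, which with RFC4 and RFC5 also serve in the alternative loaders of checkpoint and cohesion. RFC2 had 8.58, 8.53 and 8.47 at 300 mg/L, against 8.33, 8.36 and 8.41 in control, a change of 0.16 ± 0.08 (adjusted p = 0.135 by limma). RFC3 had 8.38, 8.48 and 8.32 at 300 mg/L, against 8.52, 8.58 and 8.44 in control, a change of -0.12 ± 0.07 (adjusted p = 0.191 by limma). RFC1, the large subunit, which belongs to the replication loader and not to the alternative ones, changed by -0.14 ± 0.09 (adjusted p = 0.218 by limma). The 95% intervals for RFC1, RFC2 and RFC3 reached from -0.35 to 0.35, so a change of the size of that in RFC4 lies outside them.

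**Figure D3:**
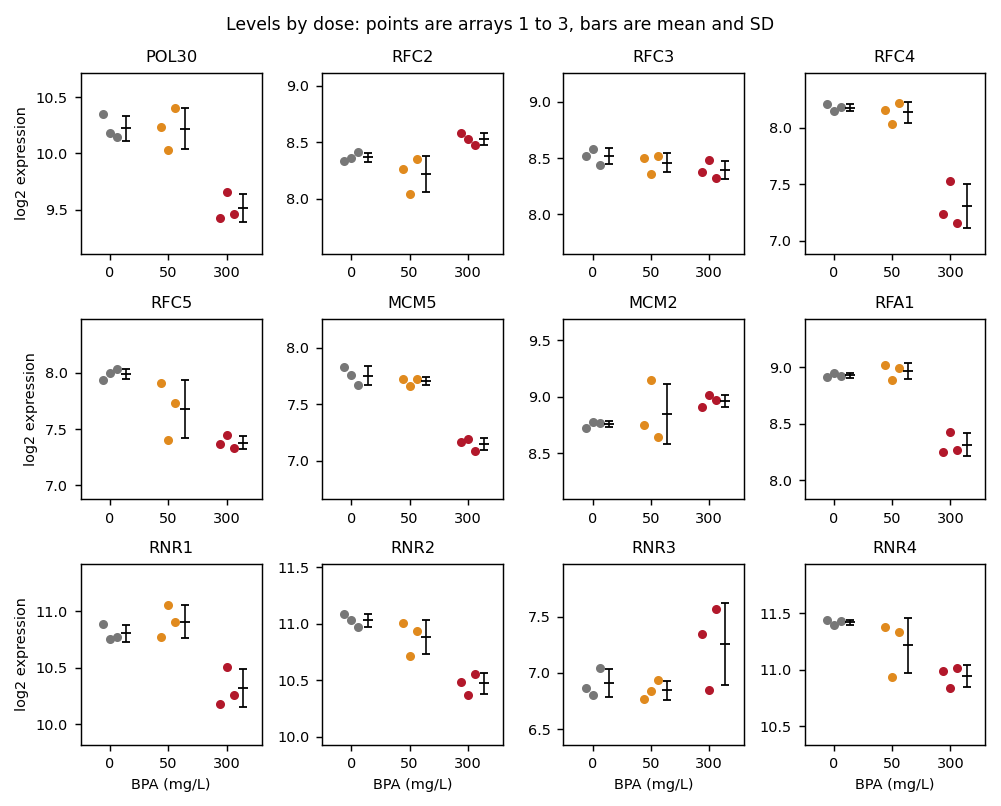
Log2 expression (vertical axes, each spanning the same range) at 0, 50 and 300 mg/L BPA for 12 of the genes; coloured points are the 3 arrays of a group and black bars the mean and SD. POL30, RFC4, MCM5, RFA1, RNR1 and RNR2 are lowest at 300 mg/L, RFC2 and MCM2 are not, and RNR3 is high on 2 of the 3 arrays at 300 mg/L.

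Among the genes for single-strand DNA binding, Okazaki fragment maturation and the fork linker, RFA1 fell, RAD27 rose and 4 did not pass. Of all genes 25.2% were called lower and 27.5% higher. RFA1, the large subunit of the single-strand binding complex RPA, had 8.25, 8.43 and 8.27 at 300 mg/L, against 8.91, 8.95 and 8.92 in control. It fell by 0.61 ± 0.07 (SE), 1.53-fold, with an adjusted p of 8.63e-05 in limma. The other RPA subunits did not pass: RFA2 changed by -0.18 ± 0.10 and RFA3 by 0.11 ± 0.08, with adjusted p of 0.170 and 0.254. RAD27, the flap endonuclease that trims Okazaki fragments, had 8.81, 8.71 and 8.60 at 300 mg/L, against 8.51, 8.43 and 8.38 in control, a change of 0.27 ± 0.09 with an adjusted p of 0.0320 in limma. CDC9, the DNA ligase, and CTF4, which links the helicase to polymerase alpha, changed by -0.16 ± 0.07 and -0.15 ± 0.07, each with groups that did not overlap and an adjusted p of 0.0847 and 0.110.

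Of the 4 ribonucleotide reductase genes 3 fell, where 25.2% of all genes were called lower. RNR1, the large subunit used in an unperturbed S phase, had 10.18, 10.51 and 10.26 at 300 mg/L, against 10.89, 10.75 and 10.77 in control, and fell by 0.49 ± 0.10 (SE). RNR2, the small subunit that carries the iron cofactor, had 10.49, 10.37 and 10.55 at 300 mg/L, against 11.09, 11.03 and 10.97 in control, and fell by 0.56 ± 0.09. RNR4, its partner in the small subunit, had 10.98, 10.83 and 11.02 at 300 mg/L, against 11.44, 11.39 and 11.43 in control, and fell by 0.48 ± 0.11. In none of these 3 genes did the groups overlap, and limma's adjusted p were 0.00255, 0.000528 and 0.00473. Of all genes 32.6% were lower without overlap.

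RNR3, the alternative large subunit, known for its induction by DNA damage, was split between arrays. It had 7.34, 6.85 and 7.56 at 300 mg/L, against 6.87, 6.81 and 7.05 in control. Replicate 2 of the treated group lay among the control values, and the change of 0.35 ± 0.15 had an adjusted p of 0.0808 in limma. RNR3 stayed without a call in 16 of the 20 alternatives. Over all 20 its change was 0.19 to 0.55 and limma's adjusted p 0.00239 to 0.310. The change of 0.55 and the lowest adjusted p are those without 300 mg/L replicate 2. With the replicate number as a block over all 9 arrays the adjusted p was 0.0353.

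**Figure D4:**
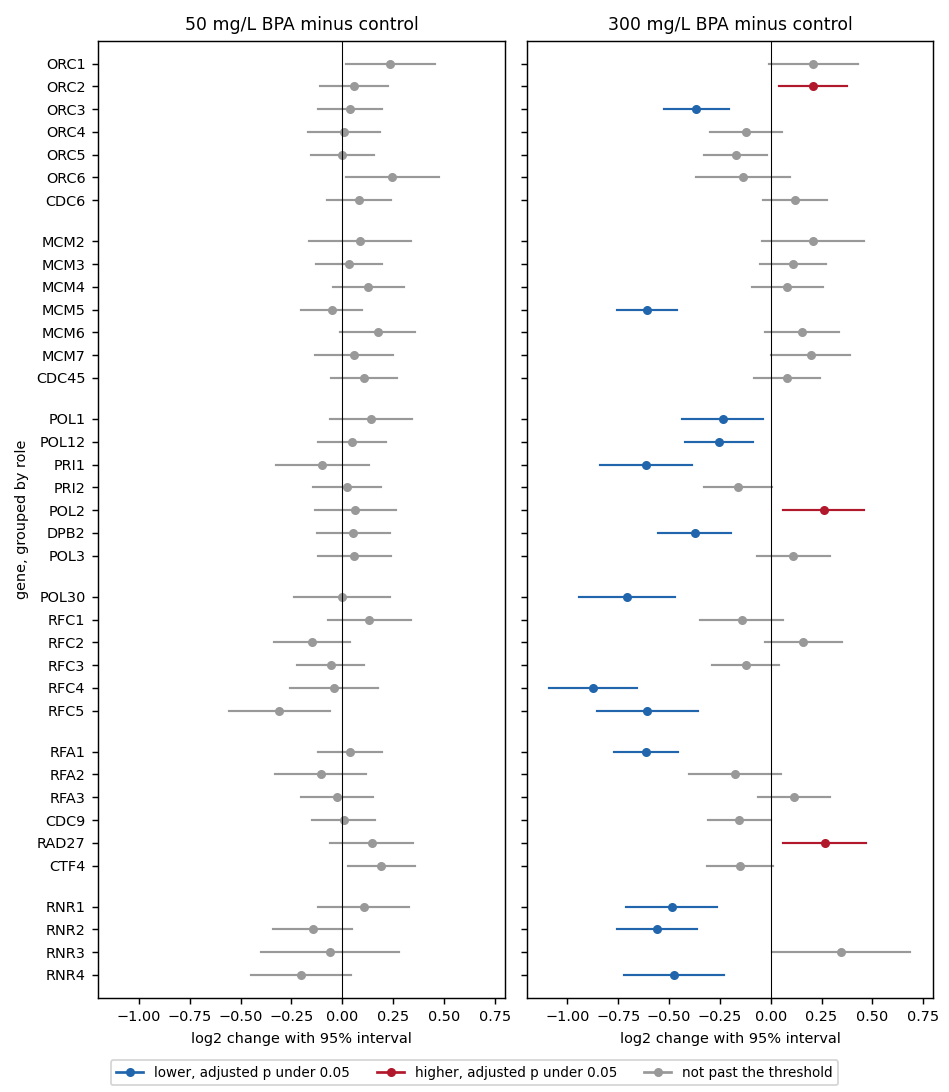
Log2 change against control (horizontal axes) with its 95% interval from the limma fit for the 37 genes, at 50 mg/L (left) and 300 mg/L BPA (right); blue and red mark adjusted p under 0.05, grey the rest. At 50 mg/L all 37 are grey, and at 300 mg/L there are 13 blue and 3 red.

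The arrays at 50 mg/L do not enter the change at 300 mg/L, but they enter the estimate of each gene's spread. Without 50 mg/L replicate 2, 24 of the 37 genes were called at 300 mg/L, 17 lower and 7 higher, where 60.8% of all genes were called. The same 16 were among them. The additional falls were ORC5, PRI2, RFA2 and CDC9, and the additional rises ORC1, MCM2, MCM7 and RFC2, with limma's adjusted p between 0.0107 and 0.0448. All 8 changed by less than 0.22 on the log2 scale. In all, 19 of the 37 genes had treated values all below control values and 10 had them all above, where 32.6% and 35.2% of all genes did.

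Of 29 further origin firing and fork genes 8 rose, 27.6% against 27.5% of all genes, and 3 fell, 10.3% against 25.2%. Their median change was 0.07. SLD2 and SLD3, the cyclin-dependent kinase substrates that trigger origin firing, rose by 0.64 ± 0.12 and 0.55 ± 0.12 (SE). SLD3 had 7.29, 7.19 and 7.20 at 300 mg/L, against 6.64, 6.72 and 6.67 in control. CDC7, the kinase that activates MCM, had 5.88, 6.07 and 5.86 at 300 mg/L, against 6.41, 6.53 and 6.52 in control, and fell by 0.55 ± 0.07. PSF3, a GINS subunit, fell by 0.32 ± 0.09. Adjusted p for these 4 were 0.000227 to 0.0149 in limma. The GINS genes did not move together. PSF1 had 8.35, 8.58 and 8.25 at 300 mg/L, against 7.89, 7.88 and 7.82 in control. SLD5 and PSF2 averaged 6.80 and 7.18 at 300 mg/L, against 7.04 and 7.33 in control.

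Among 12 genes that regulate ribonucleotide reductase or act in the damage checkpoint, 3 rose and 2 fell at 300 mg/L. Together these are 41.7%, against 52.7% of all genes, so calls were no more common here than elsewhere. WTM1, which holds the small subunit of the reductase in the nucleus, had 10.76, 10.44 and 10.75 at 300 mg/L, against 11.93, 11.87 and 11.77 in control. It fell 2.31-fold, by 1.21 ± 0.10 (SE), with an adjusted p of 1.27e-05 in limma. DIF1, which carries that small subunit into the nucleus, had 8.24, 8.48 and 8.44 at 300 mg/L, against 7.84, 7.96 and 7.78 in control, and rose by 0.52 ± 0.09. WTM2, a paralogue of WTM1, rose by 0.25 ± 0.07, and DUN1, the checkpoint kinase that relieves repression of the reductase genes, fell by 0.35 ± 0.09. Of 7 genes of deoxynucleotide supply 1 fell and 1 rose, together 28.6% against 52.7% of all genes, and both act on the same folate cycle. CDC21, thymidylate synthase, had 7.95, 7.92 and 7.91 at 300 mg/L, against 8.64, 8.58 and 8.50 in control, and fell by 0.65 ± 0.07. DFR1, dihydrofolate reductase, had 8.38, 8.37 and 8.27 at 300 mg/L, against 7.64, 7.81 and 7.83 in control, and rose by 0.58 ± 0.08.

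Of 22 genes that mark phases of the cell cycle 11 passed at 300 mg/L, 50.0% against 52.7% of all genes, so calls were no more common among them than elsewhere. Of 5 G1/S cyclin genes 4 fell and 0 rose, led by PCL1, by 1.07 ± 0.11 (SE), and CLN1, by 0.65 ± 0.11. Of 7 histone genes measured, HHT1 fell by 0.53 ± 0.13 and HHF1, whose probes may also bind related histone genes, rose by 0.29 ± 0.07, while 5 did not pass. Of 5 G2/M genes measured, CLB1 fell by 1.02 ± 0.07 and SWI5 by 0.45 ± 0.11, and CLB2, the paralogue of CLB1, rose by 0.66 ± 0.09. Of 5 M/G1 genes, SIC1 rose by 0.39 ± 0.06 and EGT2 fell by 0.34 ± 0.09. Among 6 regulators of G1/S transcription, the SBF subunit gene SWI4 rose by 0.32 ± 0.07 and the MBF co-repressor gene NRM1 by 0.29 ± 0.08, while the SBF repressor gene WHI5 fell by 0.46 ± 0.11 and STB1 by 0.33 ± 0.10. The part of a change in cell cycle phase in the replication genes was not tested.

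**Figure D5:**
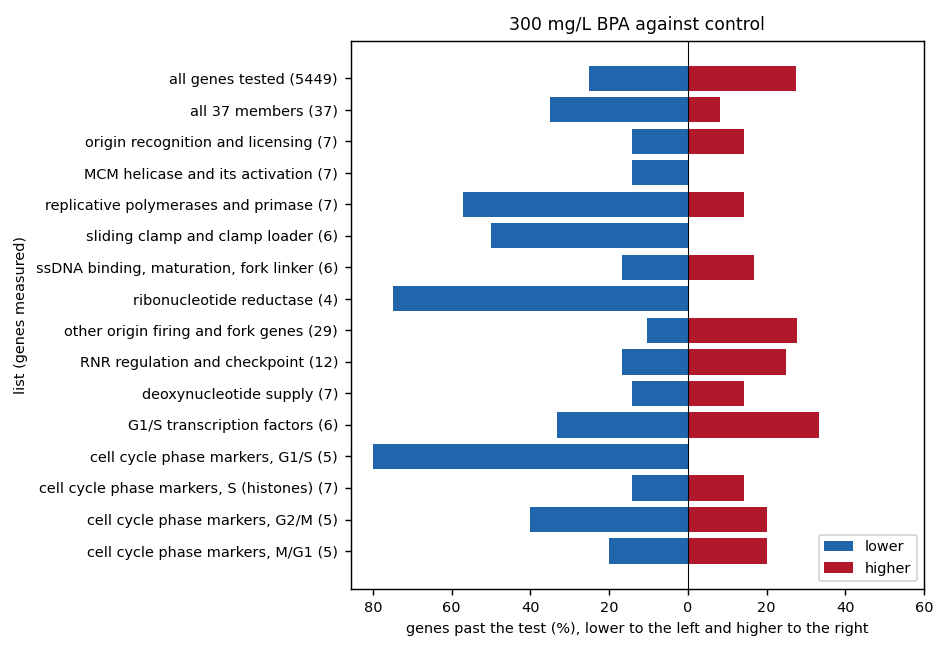
Share of genes past the test at 300 mg/L BPA against control (horizontal axis, percent; blue to the left lower, red to the right higher) for all genes, the 37 replication genes, their 6 roles and the 8 further lists, with the number of genes measured in brackets. Ribonucleotide reductase, polymerases, clamp and the G1/S cyclins extend furthest to the left. G2/M markers (40.0%) and G1/S transcription factors (33.3%) also reach past the 25.2% of all genes. The share of further origin firing and fork genes that rose, 27.6%, is about that of all genes, 27.5%.

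At 50 mg/L BPA, 0 of the 37 genes passed in limma, and 0.0% of all 5449 genes did. At an unadjusted p under 0.05 there were 4 of the 37, RFC5, CTF4, ORC1 and ORC6, where 7.14% of all genes reached it. The smallest adjusted p among the 37 was 0.581. RFC5 had 7.91, 7.40 and 7.73 at 50 mg/L, against 7.94, 7.99 and 8.03 in control, a difference of -0.31 ± 0.11 (SE), and of -0.17 without replicate 2. CTF4 had 8.07, 8.24 and 8.17 at 50 mg/L, against 7.95, 8.06 and 7.89 in control, a difference of 0.19 ± 0.07, and of 0.15 without replicate 2. RFC5 and RNR4 were the 2 genes whose values at 50 mg/L all lay below those of control, against 6.5% of all genes. MCM6, CDC45 and CTF4 were the 3 with all values above, against 6.06%. RNR4 differed by -0.20, and by -0.06 without replicate 2. ORC1 differed by 0.24 ± 0.10 and ORC6 by 0.25 ± 0.10, and their groups overlapped. Without replicate 2 these differences were 0.14 and 0.18. Other differences changed sign without that array. MCM2, RFA2 and PRI1 differed by 0.09, -0.11 and -0.10 with it and by -0.06, 0.02 and 0.01 without it.

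The differences at 50 mg/L also followed gene length, and less so without replicate 2. Spearman's rho with gene length was 0.619 across the 37 genes and 0.516 across all genes. Without 50 mg/L replicate 2 these were 0.119 and 0.228. At 300 mg/L rho was 0.358 across the 37 genes and -0.090 across all. Without replicate 2, 0 of the 37 passed at 50 mg/L in limma, 1 had an unadjusted p under 0.05, again RFC5, and the largest difference in either direction was the 0.18 of ORC6. Over all 3 arrays the 95% intervals of the 37 differences reached from -0.56 to 0.48. POL30, which fell at 300 mg/L, had 10.23, 10.03 and 10.40 at 50 mg/L, against 10.35, 10.18 and 10.14 in control, and its interval was -0.24 to 0.23. The interval of RFC4 was -0.26 to 0.17 and that of MCM5 was -0.20 to 0.10, so the changes of these 3 genes at 300 mg/L lie outside their intervals at 50 mg/L. Without replicate 2 the differences of POL30, RFC4 and MCM5 at 50 mg/L were 0.09, 0.01 and -0.03. The median difference of the 37 genes was 0.04. Centring on spike-ins, which shifts the median of all genes at 50 mg/L by -0.11, makes it -0.070.

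Between the doses, 15 of the 37 genes were lower and 2 higher at 300 than at 50 mg/L in limma, where 25.3% and 27.5% of all genes were called lower and higher, together 52.8%. At an unadjusted p under 0.05 there were 21 of the 37, against 59.1% of all genes. The falls of POL30, RFC4, RFA1 and RNR1 were at least 1.5-fold, 4 of the 37 against 5.73% of all genes. The doses did not overlap for 16 genes lower and 1 higher at 300 mg/L, against 28.8% and 30.9% of all genes. Both comparisons use the 300 mg/L arrays. Of the 13 genes lower against control 12 were also lower against 50 mg/L. The exception was RNR4, which had 10.98, 10.83 and 11.02 at 300 mg/L, against 11.38, 10.94 and 11.34 at 50 mg/L, a change of -0.27 ± 0.11 (SE) with an adjusted p of 0.0592. Its low value at 50 mg/L is that of replicate 2, and without that array the change was -0.41, with an adjusted p of 0.00121 in limma. CTF4, ORC6 and RFC1 were called lower against 50 mg/L but not against control. CTF4 had 7.80, 7.89 and 7.77 at 300 mg/L, against 8.07, 8.24 and 8.17 at 50 mg/L, and fell by 0.34 ± 0.07, with an adjusted p of 0.00302 in limma. Without 50 mg/L replicate 2 it fell by 0.30, with an adjusted p of 0.00680.

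The genes called higher against 50 mg/L were RFC2 and RNR3. RFC2 had 8.58, 8.53 and 8.47 at 300 mg/L, against 8.26, 8.04 and 8.35 at 50 mg/L, a change of 0.31 ± 0.08 with an adjusted p of 0.0112 in limma. Without 50 mg/L replicate 2 it was 0.22, with an adjusted p of 0.0149. RNR3 had 7.34, 6.85 and 7.56 at 300 mg/L, against 6.77, 6.84 and 6.93 at 50 mg/L, a change of 0.41 ± 0.15 with an adjusted p of 0.0454 in limma and overlapping groups. That call was lost on leaving out any single control or 50 mg/L array, or 300 mg/L replicates 1 or 3, with adjusted p of 0.0512 to 0.169. RFC5 lost its lower call on leaving out any single array other than 50 mg/L replicate 2, with adjusted p of 0.0572 to 0.148. RFC1 lost it without 50 mg/L replicate 2 or without 300 mg/L replicates 1 or 3, at 0.0568 to 0.0871. The calls of MCM5, PRI1, POL30, RFC4, RFA1 and RNR1 against 50 mg/L were kept under all 20 alternatives. Without 50 mg/L replicate 2, 18 of the 37 were lower and 5 higher, where 55.0% of all genes were called. The 5 higher were ORC2, MCM2, MCM7, POL2 and RFC2, with limma's adjusted p of 0.00613 to 0.0283. RNR3 was not among them, at 0.0928. PRI2, RFA2, CDC9 and RNR4 joined the lower calls in that fit. An F test over the 3 groups found any difference for 16 of the 37 genes, against 52.9% of all genes.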

How the data were processed

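The authors deposited log2 expression values of 9 arrays with 1 value per probe set. The tools named in the submitters' processing notes are RMA, affy and limma, without versions. RMA corrects background, equalises probe intensity distributions between arrays and summarises each probe set, so values are relative to the rest of an array. The table holds 10928 probe sets. Of these, 5498 matched the R64 gene table by gene identifier, which gave names and gene lengths. Lengths were multiples of 3 for 97% of genes, so not all of them are coding lengths. The 1746 annotated probe sets that did not match were taken as those of S. pombe, the other species on the array. The probe set with the highest mean was kept per gene, leaving 5449 genes.

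Tests used R 4.3.3 and limma 3.58.1 (lmFit, contrasts, eBayes) over all 9 arrays without a block, with two-sided p-values adjusted by Benjamini-Hochberg across the 5449 genes and a threshold of 0.05. The number of arrays limits the precision. Errors of changes are standard errors of the fit, with 95% intervals. The pipeline was tested on simulated data. Replicate numbers were checked by correlating deviations from group means. Between 50 mg/L and control the 3 same-numbered pairs gave 0.189 to 0.420 and the other pairs -0.428 to 0.180. Same-numbered pairs gave -0.337 to 0.093 between 300 mg/L and control, and -0.256 to 0.159 between the doses. These values do not settle whether the numbers pair the samples, so fits with the replicate number as a block are given as alternatives.

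All 37 genes could be named. From each further list the text names at most 2 genes a direction, those past the threshold with the biggest change. PSF1, PSF2, SLD5, DPB3 and DPB4 are given besides, since other subunits of their complexes are described. HHF2 was not matched and was not analysed here. The genes and lists were chosen with earlier results of these data known. Alternatives were 4 scalings, a filter on dim genes (above background on at least 3 arrays), the mean of a gene's probe sets, an intensity trend, fits on the compared groups alone, array weights, replicate blocks and leaving out each array. Figures were drawn with matplotlib 3.10.9.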

Additional observations from a re-analysis of the deposited data

How the results depend on the processing

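At 300 mg/L against control, 12 to 24 of the 37 genes were called when 1 array was left out, the count being highest without 50 mg/L replicate 2. Of all genes, 42.9% to 60.8% were called in those fits. With array weights, a weighting that stopped before it converged, 29 were called, where 66.1% of all genes were. Spike-in centring gave 11, all lower, where 28.1% of all genes were called. At 300 against 50 mg/L the count was 14 to 23 on leaving out 1 array, where 44.2% to 55.0% of all genes were called. It was 27 with array weights and 6 with spike-in centring, where 64.8% and 26.0% of all genes were called. For the F test it was 12 to 22, 29 and 9, against 40.4% to 58.4%, 70.9% and 27.6% of all genes. At 50 mg/L against control it was 0 in limma under every alternative, with 4 at an unadjusted p under 0.05 in the fit described. On leaving out 1 array, the median change of the 37 genes was -0.18 to -0.12 at 300 mg/L against control, -0.21 to -0.13 against 50 mg/L and 0.02 to 0.06 at 50 mg/L against control. Spike-in centring gave -0.23 at 300 mg/L and -0.070 at 50 mg/L against control. Why these settings move the counts was not tested. With the replicate number as a block over all 9 arrays, 16 of the 37 were called at 300 mg/L against control, 15 of them the same. Of all genes 52.6% were called there. At 300 against 50 mg/L there were 17, against 53.3% of all genes, and at 50 mg/L 0, against 0.0%. Within the groups compared alone, the block gave 18, 16 and 0, against 54.9%, 45.5% and 0.0184% of all genes. The block changed no call of the 37 genes at 50 mg/L. No called gene changed direction under any alternative. The arrays carry no counts, and signal over background did not limit these genes, all of which lay above background.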
